A study of Mus musculus with 20 samples.

Results

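The 37 genes of the mouse mitochondrial genome were followed across 20 RNA libraries from MC38-OVA tumours, a colon carcinoma line that carries ovalbumin, grown in C57BL/6 mice. Members were all genes whose symbol starts with mt-, and each of the 37 matched the mitochondrial chromosome of GRCm38, out of 55174 annotated genes in the count matrix. They comprised 13 protein-coding genes, 2 ribosomal RNAs and 22 transfer RNAs. They were chosen by name and chromosome, so no measured value selected them, although the share of these genes in the CD11c+CD11b+ libraries was known beforehand.

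Infiltrating leukocytes were sorted into CD8 T cells and 3 myeloid fractions by surface CD11c and CD11b, both of them integrins. The first fraction was CD11c+CD11b-, another CD11c+CD11b+ and the last CD11c-CD11b+. Radiotherapy (RT) was 8 Gy on day 12. It was given alone, with a SIRPa antibody (anti-SIRPa, 400 µg on days 12, 14 and 16), with a PD-1 antibody (anti-PD-1, 250 µg on days 12 and 15) or with both antibodies, and a last set of tumours was untreated. The SIRPa receptor of myeloid cells holds back the uptake of other cells, and PD-1 dampens T cells once they are activated. Cells were harvested on day 17, 5 days after RT. Each library held leukocytes pooled from 10 tumours of 10 mice, each population and treatment had 1 library, and all 4 populations under a treatment were sorted out of 1 pool. No treatment had a repeat pool, so treatment and pool cannot be told apart. Population tests, with the pool as a term, drew their spread from how the population difference varied between pools given different treatments. Irradiation tests drew it from the irradiated pools, whatever antibody they had. Antibody tests drew it from the departure from additive effects of the antibodies.

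The mitochondrial chromosome is transcribed from both strands as long precursors, from which tRNAs are cut out so that the mRNAs and rRNAs lying between them are released. Its mRNAs encode core subunits of the respiratory complexes I, III and IV and of ATP synthase, and all other subunits of these complexes are encoded in the nucleus. Respiration fuels T cells and alternatively activated macrophages in particular, whereas inflammatory myeloid cells lean on glycolysis.

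Library totals ran from 21522743 to 35696925 estimated counts. The library labelled untreated CD8 T went against its label: the summed level of 12 CD8 T cell markers was 268 CPM (counts scaled to the library total) there, against 4528 to 6514 CPM in the irradiated CD8 T libraries. All 12 markers were lower in it than in every irradiated CD8 T library, although none was at 0, and its 12 macrophage markers summed to 17528 CPM, against 1256 to 2893 CPM. The sorted integrins followed the myeloid labels. The mRNA of Itgam, which encodes CD11b, was at 61.6 to 119 CPM in CD11c+CD11b- libraries, 1247 to 1591 CPM in CD11c+CD11b+ libraries and 775 to 1748 CPM in CD11c-CD11b+ libraries. That of Itgax, which encodes CD11c, was at 276 to 419, 296 to 380 and 70.7 to 127 CPM in the same order.

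Nearly all mitochondrial counts came from the protein-coding genes. Per kilobase of gene length, mt-Co1 was the highest member, with a median of 2758 CPM per kb over the 20 libraries. This gene (chrM:5328-6872, plus strand) encodes the catalytic subunit of complex IV, the cytochrome c oxidase that passes electrons to oxygen. Next came mt-Cytb (chrM:14145-15288), the cytochrome b of complex III, at 1289 CPM per kb, and mt-Co2 (chrM:7013-7696), the complex IV subunit that accepts electrons from cytochrome c, at 1194 CPM per kb. ATP synthase subunit a, encoded by mt-Atp6, was at 854 CPM per kb, and the core complex IV subunit mt-Co3 at 679 CPM per kb.

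The 7 complex I genes encode the membrane part of the NADH dehydrogenase. Their median levels per kb were 836 CPM for mt-Nd1, 448 CPM for mt-Nd5, 381 CPM for mt-Nd4, 263 CPM for mt-Nd2, 197 CPM for mt-Nd4l, 183 CPM for mt-Nd3 and 139 CPM for mt-Nd6. The lowest of these, mt-Nd6 (chrM:13552-14070), is the one protein-coding gene of the minus strand. The remaining ATP synthase subunit gene, mt-Atp8, was at 353 CPM per kb.

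The mitochondrial rRNAs were far below the mRNAs. The small subunit rRNA mt-Rnr1 (chrM:70-1024) had 21 to 286 counts a library, and the large subunit rRNA mt-Rnr2 (chrM:1094-2675) had 56 to 373 counts, or medians of 2.90 and 3.71 CPM per kb. How rRNA was handled in library preparation is not given in the sources used here. Of the 22 tRNAs, mt-Ts1 (a serine tRNA, chrM:6870-6938, minus strand) stood apart with 924 to 2202 counts and 687 CPM per kb, followed by mt-Tl1 (a leucine tRNA) with 118 to 734 counts and 129 CPM per kb. No other tRNA passed 183 counts in any library, and mt-Tf (phenylalanine) had 0 counts in 16 of 20 libraries and at most 2 in the others. A count of 0 allows up to 3 counts, or 0.084 to 0.139 CPM, for counting error alone.

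Several members share their sequence with copies in the nuclear genome, so that their reads can be split. Of 17 annotated nuclear pseudogenes that aligned to a member over at least 100 bases at 90% identity or more, 7 lie in 1 block of chromosome 1 (chr1:24611535-24616197) and took large counts. The first bases of mt-Co2 are shown beside a copy of this block and the copy on chromosome 2, read from GENCODE M21 transcripts on GRCm38, because they show how little separates them. Capitals mark bases that differ from mt-Co2, and both copies lie on the minus strand.
mt-Co2 (chrM:7013-7102): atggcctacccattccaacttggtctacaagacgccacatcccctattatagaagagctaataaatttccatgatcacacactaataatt
Gm28661 (chr1:24615476-24615565): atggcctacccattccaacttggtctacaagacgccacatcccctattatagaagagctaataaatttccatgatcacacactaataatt
Gm13341 (chr2:22587873-22587962): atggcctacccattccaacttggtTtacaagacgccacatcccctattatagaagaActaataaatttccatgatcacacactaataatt
Gm28661 was identical to mt-Co2 over 681 bases and had 1.07 to 1.09 counts per count of mt-Co2 in the 20 libraries. Gm13341, 95.9% identical over 684 bases, had 0.0058 to 0.0126.

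The other copies of the chromosome 1 block gave the same picture. Gm10925 was 100% identical to mt-Atp6 over 678 bases and held 1.08 to 1.12 counts per count of it, Gm28437 (mt-Co3, 783 bases) held 1.07 to 1.08, and Gm10222 (mt-Nd4l, 294 bases) held 1.02 to 1.08. Gm28438, 99.7% identical to mt-Nd3, held 1.03 to 1.10. Gm28439 and Gm29216, which cover 876 bases of mt-Nd4 and 483 bases of mt-Co1, held 0.254 to 0.297 and 0.166 to 0.199. Levels of mt-Co1, mt-Co2, mt-Atp6, mt-Co3, mt-Nd3, mt-Nd4l and mt-Nd4 are therefore uncertain. In contrast, mt-Nd1, mt-Nd2, mt-Nd5, mt-Nd6, mt-Cytb and mt-Atp8 have no abundant annotated copy. Only annotated transcripts were searched, so copies outside the annotation could not be found. Adding the copies to their members left mt-Co1 first at 3283 CPM per kb but put mt-Co2 (2489), mt-Atp6 (1792) and mt-Co3 (1409) above mt-Cytb (1289).

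**Figure D1:**
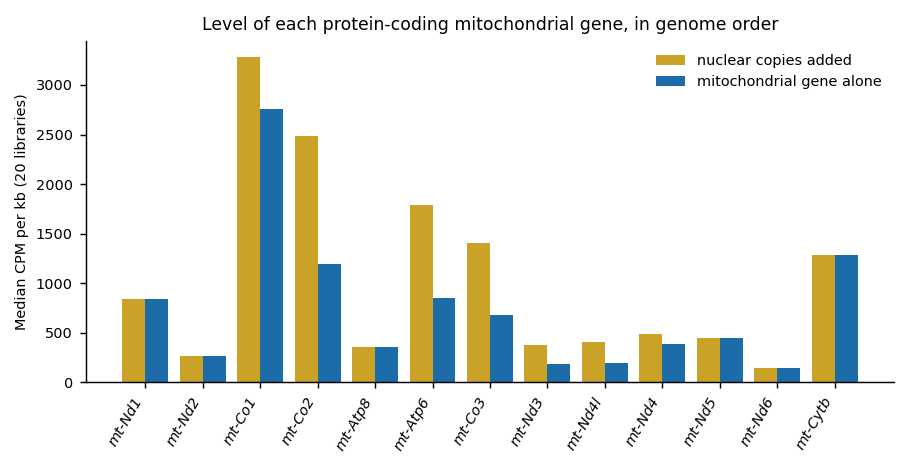
Median level of the 13 protein-coding mitochondrial genes over the 20 libraries, in CPM per kb, in their order along the chromosome, with counts of the nuclear copies added (gold) and without them (blue). The bars of mt-Co2 read 2489 with copies and 1194 without, whereas those of mt-Cytb, which has no abundant annotated copy, both read 1289.

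Neighbouring members also overlap one another, which bears on how their reads are assigned. The end of mt-Atp8 shares 43 bases with the start of mt-Atp6, and the end of mt-Nd4l shares 7 with mt-Nd4, all on the plus strand. The abundant tRNA mt-Ts1 ends opposite the last 3 bases of mt-Co1, and mt-Nd6 shares 14 bases with mt-Nd5 on the other strand. In the stretches below, from GENCODE M21, capitals mark the shared bases.
mt-Atp8 (chrM:7890-7969, plus strand): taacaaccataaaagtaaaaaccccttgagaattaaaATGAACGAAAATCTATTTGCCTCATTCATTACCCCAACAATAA
mt-Nd4l (chrM:10134-10173, plus strand): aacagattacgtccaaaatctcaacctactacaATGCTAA
mt-Ts1 (chrM:6870-6938, minus strand): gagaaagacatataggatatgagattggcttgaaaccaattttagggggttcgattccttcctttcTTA
Whether strand was used in counting is not given in the sources used here, so reads of mt-Ts1 and of transcripts running on from mt-Co1 cannot be told apart. The counts of mt-Ts1 were 0.915 to 1.22 per 100 counts of mt-Co1 in the 20 libraries.

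All members together held between 0.745% and 1.89% of a library's counts. With the counts of the nuclear copies added, the range was 0.963% to 2.42%. The shares that follow leave the copies out. In CD8 T libraries the share was 1.08% with RT, 1.06% with RT and anti-SIRPa, 0.863% with RT and anti-PD-1 and 1.09% with RT and both antibodies, against 1.80% in the library labelled untreated. In CD11c+CD11b- libraries it was 0.941%, 1.08%, 0.948% and 1.22% in the same order of irradiated pools, against 1.42% untreated. In CD11c+CD11b+ libraries it was 0.904%, 0.795%, 0.745% and 0.971%, against 1.35% untreated, and in CD11c-CD11b+ libraries 0.909%, 1.32%, 1.06% and 1.01%, against 1.89% untreated. The untreated library thus had the highest share in each population, with no overlap with the 4 irradiated ones. Wilson 95% intervals of these shares, which cover counting error only, were at most 0.0049 percentage points to either side. In such bulk libraries, a changed mix of cells and a changed amount of mitochondrial RNA per cell cannot be told apart.

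**Figure D2:**
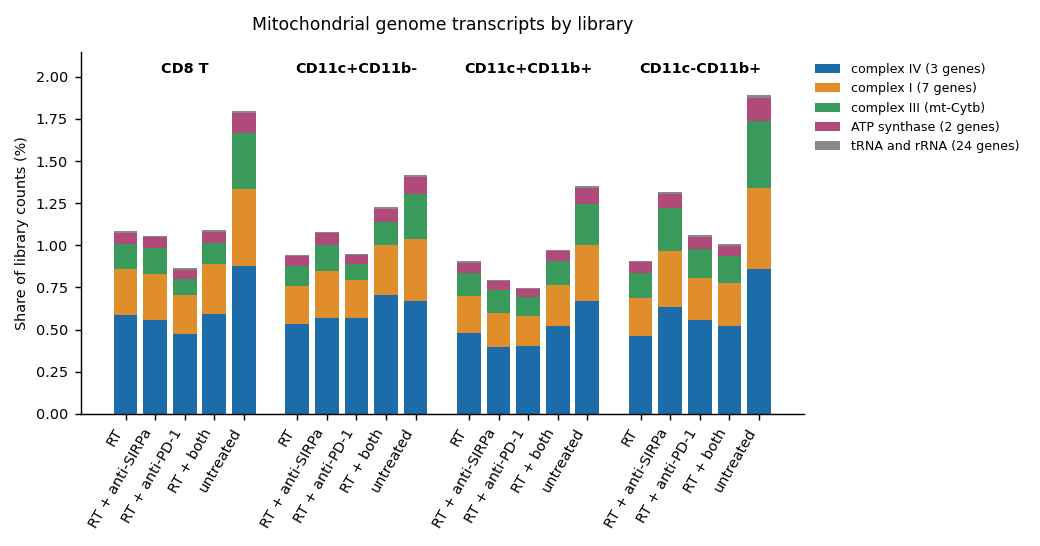
Share of each library's counts (%) taken by mitochondrial genome genes, stacked by the complex they serve, for 4 populations and 5 treatments with 1 library each. Untreated bars stand highest in every population, from 1.35% in CD11c+CD11b+ to 1.89% in CD11c-CD11b+ cells, and complex IV genes are the largest layer of every bar.

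Averaged over the 5 pools, the share was 1.18 ± 0.358% in CD8 T, 1.12 ± 0.201% in CD11c+CD11b-, 0.953 ± 0.239% in CD11c+CD11b+ and 1.24 ± 0.396% in CD11c-CD11b+ libraries (SD, n = 5 each). Without the untreated pool the means were 1.02 ± 0.107%, 1.05 ± 0.134%, 0.854 ± 0.103% and 1.07 ± 0.174% (SD, n = 4 each). Within the pools, CD11c+CD11b+ cells had the lowest share of the 4 populations in 5 of 5. CD11c-CD11b+ cells had the highest in 3 pools, and CD8 T and CD11c+CD11b- cells in 1 each. No test was made of a sum over members. These shares are of library totals, and the scaling of the tests (edgeR's TMM) gave another picture for 1 pair. The 13 protein-coding members had a median log2 fold change of 0.07 in CD11c+CD11b- against CD11c+CD11b+ cells, where library totals shifted the median of all genes by 0.18. In CD11c+CD11b+ against CD11c-CD11b+ cells their median was -0.29.

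Some single members differed between the myeloid populations once the shared pool was taken into account, but they passed less often than genes at large. Of 31 members tested, 7 passed between CD11c+CD11b- and CD11c-CD11b+ cells, where 47.1% of all genes did and 24.1% were lower. In CD11c+CD11b- against CD11c-CD11b+ cells, mt-Cytb was at 1152, 1573, 926, 1314 and 2691 CPM in CD11c+CD11b- libraries (RT alone, then RT plus anti-SIRPa, anti-PD-1 or both, then untreated), against 1469, 2520, 1667, 1613 and 4009 CPM in CD11c-CD11b+ libraries. The ranges overlapped, but within every pool the CD11c+CD11b- library was the lower one. The log2 fold change was -0.65 ± 0.11 (SE; adjusted p = 0.0029, edgeR quasi-likelihood test with Benjamini-Hochberg adjustment over all genes).

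Markers of other cells separated the same fractions. The 7 natural killer cell markers summed to 1569 to 2510 CPM in CD11c+CD11b- libraries, against 43.8 to 80.04 CPM in CD11c+CD11b+ and 32.4 to 178 CPM in CD11c-CD11b+ libraries. The 12 CD8 T cell markers summed to 649 to 934 CPM in CD11c+CD11b- libraries, against 26.1 to 41.0 CPM in CD11c+CD11b+ and 69.2 to 127 CPM in CD11c-CD11b+ libraries. The 9 neutrophil markers were at 78.2 to 155 CPM in CD11c+CD11b- and 357 to 587 CPM in CD11c+CD11b+ libraries, against 753 to 3465 CPM in CD11c-CD11b+ libraries. Their part in the differences between fractions was not tested.

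In the same comparison, mt-Nd6, the complex I subunit of the minus strand, was at 61.0, 61.4, 42.2, 52.2 and 77.5 CPM in the CD11c+CD11b- libraries, against 67.9, 76.6, 79.9, 90.02 and 109 CPM in CD11c-CD11b+ cells, lower in all 5 pools. Its log2 fold change was -0.64 ± 0.14 (adjusted p = 0.0078, edgeR). The complex I genes mt-Nd2 (-0.47, adjusted p = 0.012) and mt-Nd4l (-0.49, adjusted p = 0.0036) and the tRNAs mt-Tm (methionine, -1.002), mt-Tq (glutamine, -0.87) and mt-Tl1 (-0.47) were also lower by edgeR's adjusted p. In all, 7 of 31 members tested passed, 0 higher and 7 lower, where 47.1% of all genes passed in either direction and 24.1% lower. The median log2 fold change of the 31 was -0.31, against 0.00 over all 18962 genes tested. The catalytic mt-Co1 did not pass (-0.10 ± 0.12, adjusted p = 0.53, edgeR).

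CD11c+CD11b+ cells set against CD11c-CD11b+ cells gave negative log2 fold changes for all 13 protein-coding members, with a median of -0.29, but few passed. Of 31 members tested, 5 were lower and 0 higher by edgeR, where 24.9% of all genes passed and 12.9% were lower. Those were mt-Cytb (-0.42 ± 0.13, adjusted p = 0.048), mt-Nd4l (-0.38 ± 0.10, adjusted p = 0.021) and the tRNAs mt-Tm (-0.85), mt-Tn (asparagine, -1.03) and mt-Tq (-0.86). In CD11c+CD11b+ libraries, mt-Cytb stood at 1379, 1371, 1140, 1419 and 2442 CPM in the same order of pools, which was below CD11c-CD11b+ cells each time. The call on these members is unstable: 2 passed without the untreated, the RT with anti-SIRPa or the RT with anti-PD-1 pool, and 8 without the RT pool, while DESeq2 called 11. With library totals alone as scale it was 12, and without the pool as a term 0.

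Between the CD11c+ fractions few members passed. In CD11c+CD11b- against CD11c+CD11b+ cells, 2 of 31 members passed, beside 45.5% of all genes. mt-Co3 was at 527, 543, 571, 744 and 620 CPM in the CD11c+CD11b- libraries, against 402, 332, 314, 403 and 590 CPM in CD11c+CD11b+ cells, higher in each pool (log2 fold change 0.40 ± 0.13, adjusted p = 0.036, edgeR). In contrast, mt-Nd6 was at 90.5, 66.2, 66.5, 76.2 and 79.3 CPM in CD11c+CD11b+ cells, above the CD11c+CD11b- values of each pool given above (log2 fold change -0.57 ± 0.11, adjusted p = 0.0053, edgeR). Only the call on mt-Nd6 passed in all 14 alternatives tried. None of these bears on strand, whose use in counting is not given, and mt-Nd6 lies on the minus strand. Without the untreated pool 6 members passed, and without any one irradiated pool 1.

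Against the mean of the 3 myeloid populations, CD8 T libraries showed no protein-coding member that passed in edgeR. By unadjusted p under 0.05, which 45.1% of all genes had, and by DESeq2 the count was also 0, and the 13 log2 fold changes lay between -0.12 for mt-Cytb and 0.16 for mt-Co3. Of 34 members tested, 4 tRNAs were higher, where 35.4% of all genes passed and 19.5% were higher. These were mt-Te (glutamate, 0.72), mt-Tg (glycine, 0.71), mt-Tp (proline, 0.43) and mt-Tt (threonine, 0.46), each with at most 109 counts in a library. Without the library labelled untreated CD8 T, 2 passed, and leaving out a pool gave 0 to 2, with 0 without the RT pool and without the pool given both antibodies.

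Nuclear genes for the same complexes were set beside these members. Among 73 nuclear subunits of complexes I, III and IV and of ATP synthase, 24 were higher and 0 lower in CD8 T than in myeloid cells. Of all genes, 19.5% were higher and 15.9% lower. Examples of the higher subunits were Atp5g3, a membrane ring subunit of ATP synthase (log2 fold change 0.48), and the complex I subunit Ndufb7 (0.48), by edgeR's adjusted p. The CD8 T side included the macrophage-rich library labelled untreated. On the myeloid side, CD11c+CD11b- libraries held 1569 to 2510 CPM of natural killer cell markers. In CD11c+CD11b- against CD11c-CD11b+ cells, 22 of 73 were higher and 0 lower, where 23% of all genes were higher and 24.1% lower, with a median of 0.16, while the 13 mitochondrial genes had a median of -0.23. Examples there were Ndufb11 (complex I, 0.82), Uqcrc2 (complex III core protein, 0.40) and Atp5g3 (0.40). In CD11c+CD11b+ against CD11c-CD11b+ cells, 8 were higher and 1 lower, with a median of 0.11. As 12% of all genes were higher in that comparison, the 8 are near the background. The lower one was Ndufa4, a complex IV subunit despite its name (-0.52).

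Regulators of mitochondrial transcription were also compared. Tfam, which packages mitochondrial DNA and starts its transcription, was higher in CD11c+CD11b- cells than in CD11c+CD11b+ (log2 fold change 0.47, adjusted p = 0.013, edgeR) and than in CD11c-CD11b+ cells (0.33, adjusted p = 0.042). Its levels ran from 33.1 to 42.3 CPM in CD11c+CD11b-, 17.2 to 30.2 CPM in CD11c+CD11b+ and 20.3 to 37.8 CPM in CD11c-CD11b+ libraries. Polg, the mitochondrial DNA polymerase, was lower in CD11c+CD11b- cells in both comparisons (-0.39 and -0.49, adjusted p = 0.0024 and 0.0013). Polrmt, the mitochondrial RNA polymerase, passed in none of the 4 population comparisons by edgeR, with log2 fold changes between 0.04 and 0.12. Ppargc1a, a coactivator of mitochondrial biogenesis, had 25 to 56 counts in each CD11c+CD11b- library, against 0 to 6 counts in the other libraries.

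The comparison of irradiated with untreated tumours gave lower mean levels of most members in the irradiated pools of all 4 populations, and members passed the test in the CD8 T libraries. Whether the populations differ in this was not tested. In CD11c-CD11b+ cells, mt-Cytb was at 1469, 2520, 1667 and 1613 CPM in irradiated libraries, against 4009 CPM untreated. mt-Co1 was at 3564, 4843, 4228 and 4043 CPM in irradiated CD11c-CD11b+ libraries, against 6487 CPM untreated, and mt-Nd1 at 681, 1016, 779 and 734 CPM, against 1425 CPM. The untreated library was above all irradiated ones for each of these genes, and the irradiated library with anti-SIRPa came nearest to it.

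In those CD11c-CD11b+ cells, 0 of 28 members tested passed in edgeR, beside 0% of all genes, with 20 at an unadjusted p under 0.05, as had 21.3% of all genes, and 8 called by DESeq2. All 13 protein-coding members had negative log2 fold changes, between -0.37 ± 0.19 for mt-Nd6 and -1.05 ± 0.31 for mt-Cytb, with a median of -0.78 against 0.01 over all genes. The lone untreated library was assumed to vary like the irradiated ones. Without the RT with anti-SIRPa pool 16 members passed, and 0 without any other irradiated pool. The share of all genes that passed without that pool is not given here, so the 16 cannot be set beside it.

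The CD11c+CD11b+ libraries showed the same direction for most members. mt-Cytb was at 1379, 1371, 1140 and 1419 CPM in irradiated CD11c+CD11b+ libraries, against 2442 CPM untreated, and mt-Co1 at 3683, 2988, 3126 and 4049 CPM, against 5045 CPM. Of 26 members tested 0 passed in edgeR, beside 0.907% of all genes, with 11 at an unadjusted p under 0.05, as had 18.5% of all genes, and 4 called by DESeq2. Of the 13 protein-coding members 12 had negative log2 fold changes, with a median of -0.61, and mt-Nd6 stood at 0.00 ± 0.20. Its levels were 90.5, 66.2, 66.5 and 76.2 CPM in irradiated libraries, against 79.3 CPM untreated, so the groups overlapped. Without the RT with anti-SIRPa pool 2 members passed. With the antibodies as terms 10 passed, but that fit estimates RT without antibody against untreated, which is another comparison.

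In CD11c+CD11b- cells the members split most. mt-Cytb was at 1152, 1573, 926 and 1314 CPM in irradiated libraries, against 2691 CPM untreated, a log2 fold change of -1.13 ± 0.25 (adjusted p = 0.078, edgeR). mt-Co1 was at 4032, 4274, 4248 and 5284 CPM, against 5010 CPM, so that the pool with both antibodies lay above the untreated one (-0.18 ± 0.20). mt-Co3, at 527, 543, 571 and 744 CPM against 620 CPM, was nearest to no difference (-0.06 ± 0.21). Of 28 members tested 0 passed in edgeR, beside 0.0185% of all genes, with 10 at an unadjusted p under 0.05, as had 26% of all genes, and 4 called by DESeq2. Without the RT with anti-SIRPa pool 5 passed. With antibody terms 14 passed, but that fit estimates RT without antibody against untreated, which is another comparison.

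In CD8 T libraries, 14 of 29 members tested were lower and 0 higher by edgeR, where 31.9% of all genes passed and 17% were lower. The library they were set against is the one whose markers went against its label, so the comparison also sets CD8 T cells against a library rich in macrophage RNA. The 14 were 12 of the 13 protein-coding genes with mt-Tl1 and mt-Ts1. The largest difference was that of mt-Cytb, at 1479, 1564, 972 and 1244 CPM in irradiated libraries, against 3326 CPM in the library labelled untreated (-1.53 ± 0.23, adjusted p = 0.0033, edgeR). mt-Nd6 was at 81.2, 64.7, 62.0 and 64.2 CPM, against 136 CPM (-1.18 ± 0.15, adjusted p = 0.0018), and mt-Co3 did not pass (-0.52 ± 0.17, adjusted p = 0.059). Leaving out any one irradiated pool gave 12 to 15 members.

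Among members that could be tested, the untreated library lay above all 4 irradiated ones for 23 of 29 in CD8 T, 23 of 28 in CD11c+CD11b-, 23 of 26 in CD11c+CD11b+ and 26 of 28 in CD11c-CD11b+ libraries. The same held for 28.2%, 31.8%, 37.4% and 40.1% of all genes tested in these populations. The 4 untreated libraries came from 1 pool of tumours, so the populations are not independent repeats of the comparison.

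**Figure D3:**
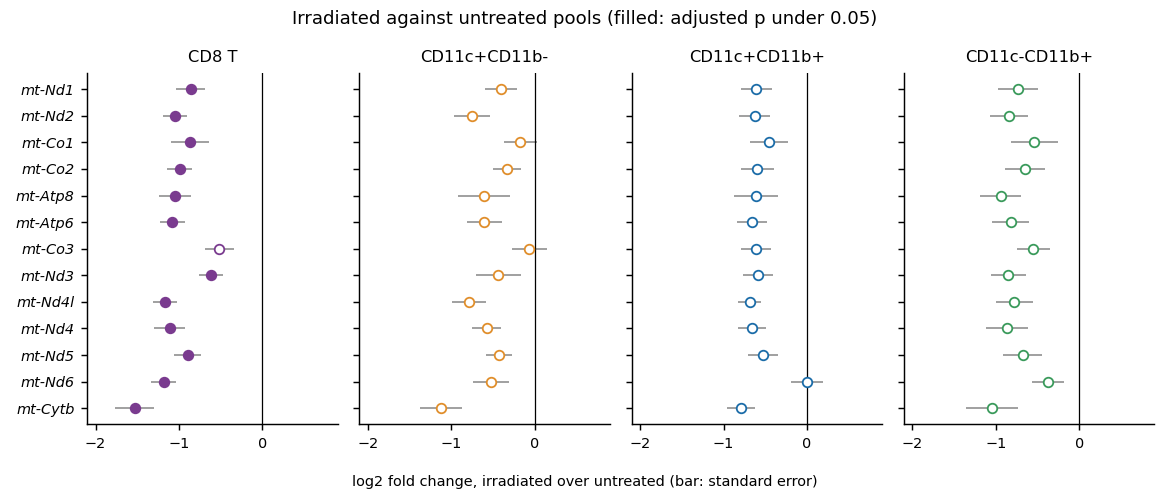
Log2 fold change of each protein-coding mitochondrial gene in irradiated over untreated libraries (4 irradiated and 1 untreated per population), with bars of 1 standard error and genes in chromosome order. Filled points passed edgeR's adjusted p of 0.05, which 12 did in CD8 T and 0 in the myeloid fractions; mt-Cytb lies furthest left in every panel.

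Markers of other cells moved along with this comparison. The 6 fibroblast markers summed to 459 to 1687 CPM in irradiated CD11c+CD11b- libraries, against 6756 CPM untreated, with all 6 genes highest untreated. In CD11c+CD11b+ libraries they summed to 735 to 1629 CPM, against 4549 CPM (5 of 6 genes highest untreated), and in CD11c-CD11b+ libraries to 1275 to 2838 CPM, against 6238 CPM (5 of 6). In CD8 T libraries the sums were 437 to 1112 CPM, against 2011 CPM (3 of 6), and no fibroblast marker was at 0 in an untreated library. The 8 inflammatory monocyte markers summed to 4456 to 5189 CPM in irradiated CD11c+CD11b+ cells, against 9046 CPM untreated, where 4 genes were highest and 2 lowest in the untreated library. They summed to 1553 to 2582 CPM in irradiated CD11c+CD11b- cells, against 4138 CPM (4 highest and 3 lowest untreated). In CD11c-CD11b+ cells the sums overlapped, at 7179 to 8717 CPM against 8143 CPM (2 highest and 5 lowest untreated).

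Some marker lists had higher sums in irradiated libraries. The 12 macrophage markers summed to 11136 to 13301 CPM in irradiated CD11c+CD11b+ libraries, against 7445 CPM untreated, with all 12 lowest untreated. In CD11c+CD11b- libraries, 10 markers of type 1 dendritic cells summed to 1910 to 4046 CPM when irradiated, against 849 CPM untreated (10 of 10 lowest untreated). The 8 markers of type 2 and mature dendritic cells summed there to 693 to 1668 CPM, against 407 CPM (8 of 8). Type 1 sums were also higher in irradiated CD11c+CD11b+ libraries, at 795 to 1074 CPM against 735 CPM (4 lowest and 3 highest untreated). In CD11c-CD11b+ libraries they were 486 to 696 CPM, against 412 CPM (4 lowest and 3 highest). In CD8 T libraries they were lower, at 425 to 469 CPM, against 736 CPM in the library labelled untreated. The 8 dissociation and stress genes summed to 2168 to 3401 CPM in irradiated CD8 T libraries, against 7687 CPM (8 of 8 highest untreated), and to 3019 to 3552 CPM in irradiated CD11c+CD11b- libraries, against 5833 CPM (5 of 8). In CD11c+CD11b+ cells they were at 6347 to 6838 CPM, against 7502 CPM (6 highest and 2 lowest untreated), and in CD11c-CD11b+ cells at 6836 to 7944 CPM, against 6801 CPM (2 highest and 6 lowest). The 4 nuclear noncoding RNA genes summed to 14144 to 17832 CPM in irradiated CD11c-CD11b+ libraries, against 10920 CPM untreated (3 of 4 lowest untreated). Their sums overlapped in both CD11c+ fractions. In irradiated CD8 T libraries they were lower, at 8650 to 12416 CPM against 15520 CPM (3 highest and 1 lowest untreated). The part of these genes and cells in the mitochondrial result was not tested.

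Nuclear genes of the same machinery had medians nearer to 0. Their CD8 T values, given last, again set CD8 T cells against the library labelled untreated, which was rich in macrophage RNA. Cell type and irradiation cannot be told apart in those values. The 73 nuclear subunits of complexes I, III and IV and of ATP synthase had a median log2 fold change of -0.05 in CD11c+CD11b-, -0.06 in CD11c+CD11b+ and -0.12 in CD11c-CD11b+ cells; edgeR called 0 in each, with 1, 3 and 2 genes at an unadjusted p under 0.05, beside the 26%, 18.5% and 21.3% of all genes given above. The 78 mitochondrial ribosomal proteins had medians of -0.03, 0.03 and -0.10, with 0 called by edgeR and 5, 3 and 1 at an unadjusted p under 0.05, beside the same shares of all genes. Of 13 nuclear genes taken as marks of mitochondrial mass, such as citrate synthase Cs and the outer membrane channel Vdac1, the log2 fold change was negative for 12, 12 and 13, with medians of -0.22, -0.19 and -0.29; edgeR called 0, with 3, 0 and 0 at an unadjusted p under 0.05. In CD8 T libraries the nuclear subunits had a median of 0.24 with 2 of 73 higher, Ndufb7 (0.81) and Ndufa4 (0.80), and 7 of 78 ribosomal proteins were higher, among them Mrps16 (0.90). Both counts are below the 14.9% of all genes that were higher there. Of the 13 genes of mitochondrial mass, Tufm (0.49) and Timm23 (0.47) were higher and Vdac1 lower (-0.66, adjusted p = 0.0066, edgeR). Tfam was higher in irradiated CD8 T libraries (0.66, adjusted p = 0.012, edgeR), as was Lrpprc, which stabilises mitochondrial mRNAs (0.46, adjusted p = 0.033), while the RNA-binding protein gene Grsf1 was lower (-0.42, adjusted p = 0.036).

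**Figure D4:**
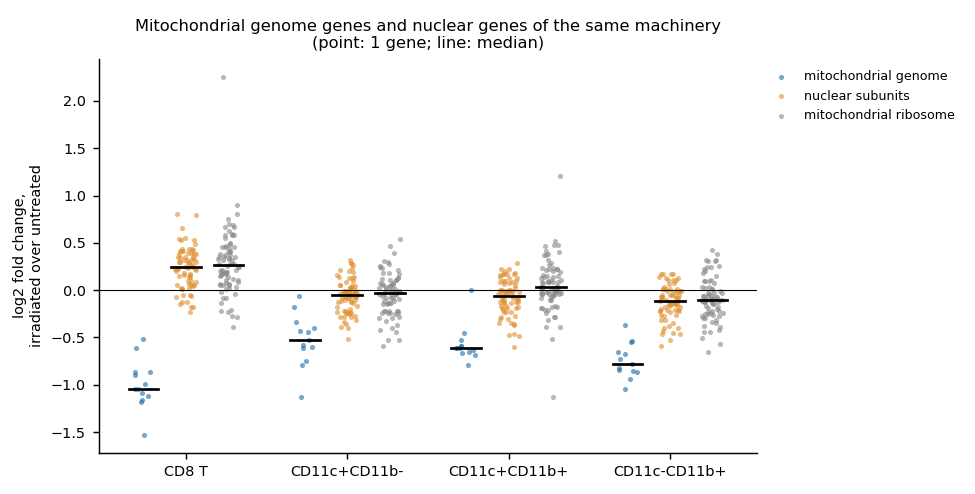
Log2 fold change in irradiated over untreated libraries for the 13 protein-coding mitochondrial genes, 73 nuclear subunits of the same complexes and 78 mitochondrial ribosomal proteins, 1 point a gene, with medians as lines. In CD11c-CD11b+ cells the medians are -0.78, -0.12 and -0.10. In CD8 T libraries, set against the macrophage-rich library labelled untreated, the medians of the nuclear lists lie above 0.

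Within a library, the balance of members also differed between irradiated and untreated pools. The ratio of mt-Cytb to mt-Co1 counts does not depend on library scaling. It was 0.331, 0.364, 0.275 and 0.274 in irradiated CD8 T libraries (RT, with anti-SIRPa, with anti-PD-1, with both), against 0.493 in the library labelled untreated. In CD11c+CD11b- libraries it was 0.286, 0.368, 0.218 and 0.249, against 0.537 untreated. In CD11c+CD11b+ libraries it was 0.374, 0.459, 0.365 and 0.350, against 0.484, and in CD11c-CD11b+ libraries 0.412, 0.520, 0.394 and 0.399, against 0.618. Untreated was highest and RT with anti-SIRPa second in each population. The CD11c-CD11b+ library given RT with anti-SIRPa also had the most neutrophil marker RNA, 3465 CPM against 753 to 1683 CPM in the other irradiated libraries of that population, and its part was not tested. By population, the ratio averaged 0.348 ± 0.0901 in CD8 T, 0.332 ± 0.128 in CD11c+CD11b-, 0.406 ± 0.0606 in CD11c+CD11b+ and 0.469 ± 0.0981 in CD11c-CD11b+ libraries (SD, n = 5 each).

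The ratio of mt-Co3 to mt-Co1 behaved otherwise. It ran from 0.1098 to 0.152 in irradiated CD8 T libraries, against 0.101 in the library labelled untreated, and from 0.127 to 0.141 in irradiated CD11c+CD11b- libraries, against 0.124 untreated. In CD11c+CD11b+ libraries it was 0.0995 to 0.111, against 0.117, and in CD11c-CD11b+ libraries the untreated value of 0.107 lay inside the irradiated range of 0.0981 to 0.116. Both genes have nuclear copies, which limits this ratio.

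**Figure D5:**
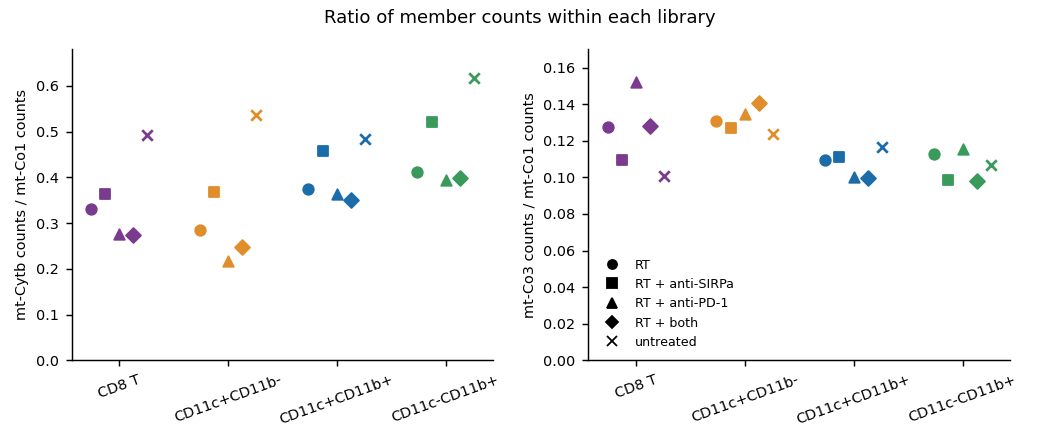
Counts of mt-Cytb (left) and mt-Co3 (right) per count of mt-Co1 in each of the 20 libraries, by population (colour) and treatment (symbol). For mt-Cytb the untreated cross is highest in every population, from 0.484 to 0.618, and the square of RT with anti-SIRPa comes next, whereas for mt-Co3 untreated is lowest in CD8 T and CD11c+CD11b- and highest in CD11c+CD11b+ cells.

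Within the irradiated pools, anti-SIRPa was tested with anti-PD-1 as a term, which leaves 1 residual degree of freedom. edgeR called 0 members in CD8 T (of 28 tested), CD11c+CD11b- (of 27), CD11c+CD11b+ (of 26) or CD11c-CD11b+ libraries (of 28), where 0.291%, 0.904%, 0.154% and 0% of all genes passed. At an unadjusted p under 0.05 there were 1, 13, 2 and 1, beside 10.5%, 14.4%, 13% and 4.98% of all genes, and DESeq2 called 0, 1, 1 and 0. The 13 in CD11c+CD11b- cells included 9 protein-coding genes, and all 13 protein-coding log2 fold changes were positive there, with a median of 0.33. In those cells mt-Cytb, for example, was at 1573 and 1314 CPM with anti-SIRPa, against 1152 and 926 CPM without. Levels of mt-Nd1 were 906 and 1014 CPM, against 736 and 752 CPM. How many of all genes separate in this way was not counted.

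Anti-PD-1, tested likewise with anti-SIRPa as a term, gave few calls. In CD8 T libraries 2 of 28 members passed, beside 9.34% of all genes. mt-Cytb was at 972 and 1244 CPM with anti-PD-1, against 1479 and 1564 CPM without (log2 fold change -0.40, adjusted p = 0.045, edgeR). mt-Rnr1 was at 3.68 and 2.60 CPM with anti-PD-1, against 1.35 and 0.957 CPM without (1.51, adjusted p = 0.0283, edgeR). These levels of mt-Rnr1 rest on counts of 93 and 73 against 29 and 21. Of these calls, that on mt-Cytb was lost in 4 of 8 alternatives and that on mt-Rnr1 in 4 of 7, with adjusted p (edgeR or DESeq2) of up to 0.408 for each. In CD11c+CD11b+ libraries 1 of 26 members passed, beside 8.76% of all genes and 5.71% that were lower: mt-Rnr2 was at 4.83 and 5.29 CPM with anti-PD-1, against 9.67 and 10.4 CPM without (-0.97, adjusted p = 0.0271, edgeR; lost in 2 of 7 alternatives, up to 0.200).

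In CD11c+CD11b- cells edgeR called 0 of 27 members with anti-PD-1, beside 10.3% of all genes, with 5 at an unadjusted p under 0.05 (28.7% of all genes) and 0 by DESeq2. In CD11c-CD11b+ cells it called 0 of 28, beside 0%, with 1 (17.2%) and 0. The 73 nuclear subunits all had negative log2 fold changes with anti-PD-1 in CD11c+CD11b- and in CD11c+CD11b+ cells, with medians of -0.22 and -0.21. Of all genes, 51% and 49.7% had negative values. Of the subunits 6 and 3 passed in edgeR, where 6.02% and 5.71% of all genes were lower, so these counts are near the background. At edgeR's unadjusted p under 0.05 there were 31 and 37 of 73, beside 28.7% and 28.4% of all genes. Tfam was also lower with anti-PD-1 in CD11c+CD11b+ cells (-0.58, adjusted p = 0.0238, edgeR). The 13 mitochondrial genes had medians of 0.04 and -0.02 in the same comparisons. Each pool of tumours received 1 treatment, so antibody and pool cannot be told apart here.

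Across the 20 libraries, most protein-coding members followed each other. Pearson's r of log2 CPM was highest between mt-Nd1 and mt-Nd5 (0.980), and above 0.97 also between mt-Nd2 and mt-Nd4l and between mt-Co1 and mt-Co2. mt-Nd6 was least like the rest, with a median r of 0.559 to the 12 others and 0.087 to mt-Co3. These values describe libraries that share pools, depth and the untreated against irradiated difference.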

How the data were processed

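RNA of 20 sorted libraries was measured, 1 per population and treatment. The authors deposited estimated counts per transcript as whole numbers, made with HISAT2 and StringTie on GRCm38 after FastQC 0.11.8, with edgeR 3.34.0 also listed, per the submitters' processing notes. The sources used here give no version of HISAT2 or StringTie, no strand setting and no rRNA handling. The deposited counts of 142699 transcripts were summed to genes through GENCODE M21 (141374 matched; the 1325 others held at most 0.419% of a library's counts).

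Levels are CPM of the library total. Tests used edgeR 4.0.16 (R 4.3.3, limma 3.58.1) with TMM scaling, a filter on low counts set by population (minimum count 10, minimum total 15), the quasi-likelihood test and Benjamini-Hochberg adjustment over all genes, called at 0.05, in 16 comparisons. Population comparisons had the treatment pool as a term, because the populations of a treatment were sorted from 1 pool. In the sample titles these populations share a letter (A to E), which does not itself name a pool. Standard errors are the log2 fold change over the root of F and are approximate. Residual degrees of freedom were 4 for pairs of myeloid populations, 12 for CD8 T against myeloid, 3 for irradiation and 1 for antibodies. The test was checked on simulated data. For populations, P-values measure the spread of their difference between pools. For irradiation they measure the spread among irradiated pools, and for antibodies the departure from additive effects. None measures the spread between repeats of a treatment.

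DESeq2 1.42.0, other scalings, filters and terms, and leaving out each pool were tried as alternatives. Nuclear copies were found among annotated transcripts with BLAST 2.17.0 (at least 90% identity over 100 bases). Tables and plots used Python 3.11.15, numpy 2.4.6, pandas 2.3.3 and matplotlib 3.10.9. Named genes were all members, up to 4 called genes of each list with the largest log2 fold change in a comparison, Tfam, Polrmt, Lrpprc, Ppargc1a and Polg, and the nuclear copies; Cs, S100a8 and, in myeloid cells, Vdac1 were named outside this rule, after their values were seen. The members and lists were chosen with earlier results of these data known.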

Additional observations from a re-analysis of the deposited data

Results flagged for a closer look

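Among 60 groups of 4 irradiated libraries, 4 had a library whose gap to the nearest other one, over the range of the group, was above Dixon's 95% limit. Chance gives about 1 in 20 groups. The mitochondrial share in irradiated CD8 T libraries was 0.863% with RT and anti-PD-1, against 1.06% to 1.09% in the others. In the same library mt-Nd2 was at 214.9 CPM, with the others at 272 to 279 CPM. mt-Nd6 was at 81.2 CPM in CD8 T cells after RT alone, with the others at 62.0 to 64.7 CPM. The mt-Cytb to mt-Co1 ratio was 0.520 in CD11c-CD11b+ cells after RT with anti-SIRPa, with the others at 0.394 to 0.412. That library also had 3465 CPM of neutrophil markers (S100a8 at 697 CPM), with the others at 753 to 1683 CPM (S100a8 at 97.9 to 302 CPM), whose part was not tested.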

How the results depend on the processing

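No called member changed direction under the alternatives tried. The shares of all genes printed beside member counts are those of the main fits. Counts under an alternative are given without such a share, so they show only how far the count of members moved. Of the values checked for single members, 348 kept their side of the threshold and 82 no longer passed; of the counts and shares, 151 stayed within their limits and 53 moved. In CD11c+CD11b+ against CD11c-CD11b+ cells, DESeq2 called 11 members, all 20 libraries in 1 fit 3, no filter on low counts 3, removal of rRNA and tRNA 3, and library totals as scale 12. In CD11c+CD11b- against CD11c+CD11b+ cells library totals gave 9, and in CD11c+CD11b- against CD11c-CD11b+ cells removal of rRNA and tRNA gave 4. In CD8 T against myeloid libraries the filter set by the design matrix gave 2, no filter 1, removal of rRNA and tRNA 0, and leaving out the library labelled untreated CD8 T 2. Without the replicate block, that is without the pool that pairs the populations, the counts were 1, 0, 1 and 1 for CD11c+CD11b- against CD11c+CD11b+, CD11c+CD11b+ against CD11c-CD11b+, CD11c+CD11b- against CD11c-CD11b+ and CD8 T against myeloid.

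For irradiation, DESeq2 called 4 members in CD11c+CD11b+, 4 in CD11c+CD11b- and 8 in CD11c-CD11b+ cells. Antibody terms gave 10 in CD11c+CD11b+ and 14 in CD11c+CD11b- cells, but they change the comparison to RT without antibody against untreated. For anti-SIRPa, DESeq2 called 1 in CD11c+CD11b+ and 1 in CD11c+CD11b- cells, where DESeq2's size factors and library totals gave 3 each. For anti-PD-1 in CD8 T libraries, DESeq2 called 1, its size factors 1 and removal of rRNA and tRNA 1, and 0 passed with no filter, with the design filter or without the other antibody as a term. With anti-PD-1 in CD11c+CD11b+ libraries, no filter, removal of rRNA and tRNA and dropping the other antibody each gave 0, and in CD11c+CD11b- cells the size factors gave 1. The causes were not tested. Leaving out 1 pool at a time gave 1 to 6, 2 to 8, 6 to 10 and 0 to 2 members in the population comparisons in the order above. For irradiation it gave 12 to 15 in CD8 T, 0 to 2 in CD11c+CD11b+, 0 to 5 in CD11c+CD11b- and 0 to 16 in CD11c-CD11b+ cells. Mean shares without 1 pool were 1.02% to 1.26%, 0.854% to 1.00%, 1.05% to 1.17% and 1.07% to 1.32% for CD8 T, then CD11c+CD11b+, then CD11c+CD11b- and last CD11c-CD11b+ libraries. With nuclear copies the mean share was 1.23% in CD11c+CD11b+ and 1.47% in CD11c+CD11b- cells. Library totals shifted the median log2 fold change of all genes by 0.18 in CD11c+CD11b- against CD11c+CD11b+, by 0.105 in CD11c+CD11b- against CD11c-CD11b+ and by 0.18 for irradiation in CD8 T libraries, and by under 0.1 elsewhere. The filter set by the design matrix, library totals and nuclear copies were added after seeing the data. Leaving out a pool left no residual degrees of freedom for the antibodies. Depth limits the rRNAs and most tRNAs.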
